A study of Arabidopsis thaliana with 4 samples.

Results

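AT2G31790 (UGT74C1), UGT74B1 and BCAT4 encode enzymes of glucosinolate synthesis, and their transcripts were followed in Arabidopsis thaliana leaves before and after treatment with probenazole (PBZ), a plant defence activator applied here to raise the plants' own salicylic acid. The 3 genes were taken by name, each through its single probe set (a group of short probes for 1 transcript) that the array annotation pairs with exactly 1 gene. They are 3 of 9535 genes measured in this way, and they were chosen with earlier results of these data known. Rosette leaves 5 to 8 of plants 5 weeks old by the labels were compared in 2 groups. The first was sampled 72 h after the roots were drenched with 0.5 mM PBZ, and the second before the drench (0 h, no PBZ). Each group had 2 biological replicates, and each RNA sample was read on its own Affymetrix array. Untreated leaves of the later time are not among the 4 samples, so treatment and elapsed time cannot be told apart. The labels name no accession or genotype.

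Glucosinolates are sulfur-rich thioglucosides that Arabidopsis and its relatives store in their leaves, and myrosinases cut them into toxic products when tissue is damaged. Aliphatic glucosinolates start from methionine whose side chain is first lengthened, while indolic glucosinolates start from tryptophan. Both kinds then pass through a shared series of core steps, in which cytochromes P450 oxidise the amino acid, a sulfur donor is conjugated and cleaved to a thiohydroximate, a glucosyltransferase adds glucose to the sulfur, and a sulfotransferase completes the molecule. BCAT4 is the aminotransferase that opens the chain lengthening of methionine. UGT74B1 and UGT74C1 are the glucosyltransferases of the core, the first known to act on thiohydroximates of several origins and the second linked mainly to aliphatic glucosinolates.

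All 3 transcripts gave lower signals on each array after PBZ than on either array before it. The same held for 10.6% of all probe sets tested as deposited and for 22.8% centred. After each array was centred on its own median, UGT74C1 fell to 0.312 of its level before PBZ, and this was the only one of the 3 to pass the test across all probe sets on that scale. On the same scale UGT74B1 stood at 0.445 and BCAT4 at 0.497 of the level before PBZ, and neither passed. As deposited, with the arrays of unequal brightness, none of the 3 passed. Of the other measured genes of the pathway, GSTU20, which belongs to the sulfur conjugation step, fell on both scales.

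The arrays differed in overall brightness, which touches every value here. The median signal was 32.5 and 27.1 on the arrays after PBZ and 19.2 and 27.6 on those before it. As a result the median log2 change of the 12239 probe sets tested was 0.37 as deposited and 0.0065 once the arrays were centred, and changes are read against that shift. For the control transcript GAPDH, the 3' signal was divided by the 5' signal, a sign of RNA integrity. The ratio was 4.99 and 3.95 after PBZ and 2.13 and 4.87 before it, so the groups overlapped in it. Before replicate 1 had both the lowest ratio, 2.13, and the lowest median signal, 19.2. Whether this bears on the changes was not tested. The number of arrays, 2 per group, limits the precision. In leaf RNA of this kind, fewer cells of a type and less transcript per cell cannot be told apart.

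BCAT4 had signals of 531.5 and 637.5 after PBZ, against 747.6 and 1103 before PBZ. The means were 584.5 ± 75.0 after PBZ and 925.3 ± 251 before PBZ (SD, n = 2 each), and the groups did not overlap. As deposited the log2 change was -0.64 ± 0.47 (SE; 95% confidence interval -1.61 to 0.32; limma adjusted p = 0.542). Centring brought the arrays before PBZ close together, to 1018 and 1045, against 427 and 615 after PBZ. The centred log2 change was -1.01 ± 0.39 (95% confidence interval -1.82 to -0.20), and its limma adjusted p of 0.145 did not pass the threshold of 0.05.

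UGT74C1 had signals of 304.6 and 169.2 after PBZ, against 476.5 and 668.2 before PBZ. The lower array before PBZ exceeded the higher array after PBZ, so the groups did not overlap. The means were 236.9 ± 95.7 after PBZ and 572 ± 136 before PBZ (SD, n = 2 each). As deposited the log2 change was -1.31 ± 0.53 (95% confidence interval -2.39 to -0.23), and after adjustment over all probe sets it did not pass (limma adjusted p = 0.169). Centred, the signals were 245 and 163 after PBZ and 649 and 633 before PBZ, so the spread between the arrays before PBZ nearly closed. The centred log2 change of -1.68 ± 0.42 passed (95% confidence interval -2.54 to -0.82; limma adjusted p = 0.0140). Centred, the log2 change hardly moved without before replicate 1 (-1.66 ± 0.63) or before replicate 2 (-1.70 ± 0.63), but with the larger SE the call was lost (limma adjusted p = 0.150 and 0.0960). It was kept without after replicate 1 (-1.97 ± 0.46, limma adjusted p = 0.000683) or after replicate 2 (-1.39 ± 0.45, limma adjusted p = 0.0351).

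UGT74B1 had signals of 422.1 and 235 after PBZ, against 501.6 and 599.9 before PBZ. The means were 329 ± 132 after PBZ and 551 ± 69.5 before PBZ (SD, n = 2 each), again without overlap, though after replicate 1 lay close to before replicate 1. The log2 change as deposited was -0.80 ± 0.52 (95% confidence interval -1.86 to 0.25; limma adjusted p = 0.469). Centred, the signals were 339 and 227 after PBZ and 683 and 568 before PBZ, and the log2 change was -1.17 ± 0.41 (95% confidence interval -2.02 to -0.31; limma adjusted p = 0.104). When the whole distribution of each array was made equal by quantile normalization, UGT74B1 passed as a fall at -1.32 ± 0.39 (limma adjusted p = 0.0438), and UGT74C1 passed at -1.80 ± 0.40 (limma adjusted p = 0.00531). BCAT4 came to -1.13 ± 0.36 under that normalization and stayed above the threshold (limma adjusted p = 0.0589).

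**Figure D1:**
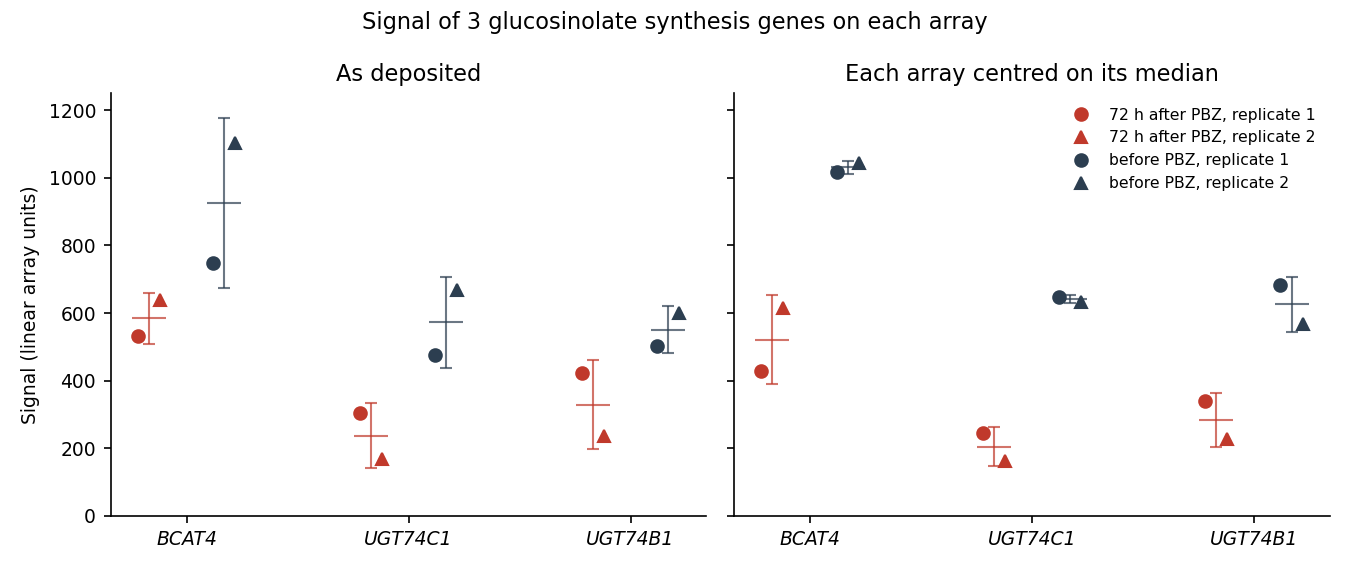
Signal in linear array units of BCAT4, UGT74C1 and UGT74B1 on each of the 4 arrays, as deposited (left) and after centring each array on its median (right). Points are arrays, horizontal bars are means and error bars are SD (n = 2 each); in both panels the red points after PBZ lie below the dark points before PBZ for each gene, and centring brings the UGT74C1 arrays before PBZ to 649 and 633.

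The counts over all probe sets give the setting for these calls. As deposited, 0 of the 3 genes were called lower by limma, where 0.245% of the 12239 probe sets tested were (30). Centred, 1 of the 3 was called lower, against a background of 1.46% (179 probe sets). The unadjusted limma p as deposited was 0.0188 for UGT74C1, 0.132 for UGT74B1 and 0.185 for BCAT4. Centred, it was 0.000538, 0.00977 and 0.0172 in the same order. The share of all probe sets under an unadjusted p of 0.05 is not given here, so these p-values have no background beside them. Under quantile normalization 2 of the 3 were called lower, against 2.27% (278 probe sets). Both arrays after PBZ lay below both arrays before PBZ for 3 of the 3 genes on either scale. Over all probe sets this held for 10.6% as deposited and for 22.8% centred, so such separation was common in these data.

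Placed among all probe sets tested, the centred log2 change of UGT74C1 was lower than that of all but 3.55%, that of UGT74B1 lower than all but 8.82% and that of BCAT4 lower than all but 11.8%. Centring leaves this order as it is. All 3 belonged to the brightest 10% of probe sets tested (1224), for which the median centred log2 change was -0.066 and 3.43% were called lower. Among these UGT74C1 had the change ranked 14 from the lowest, UGT74B1 ranked 64 and BCAT4 ranked 108. The genes thus lay toward the low side of bright probe sets as well, with UGT74C1 farthest out. As the genes were chosen with earlier results of these data known, these ranks only describe them.

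**Figure D2:**
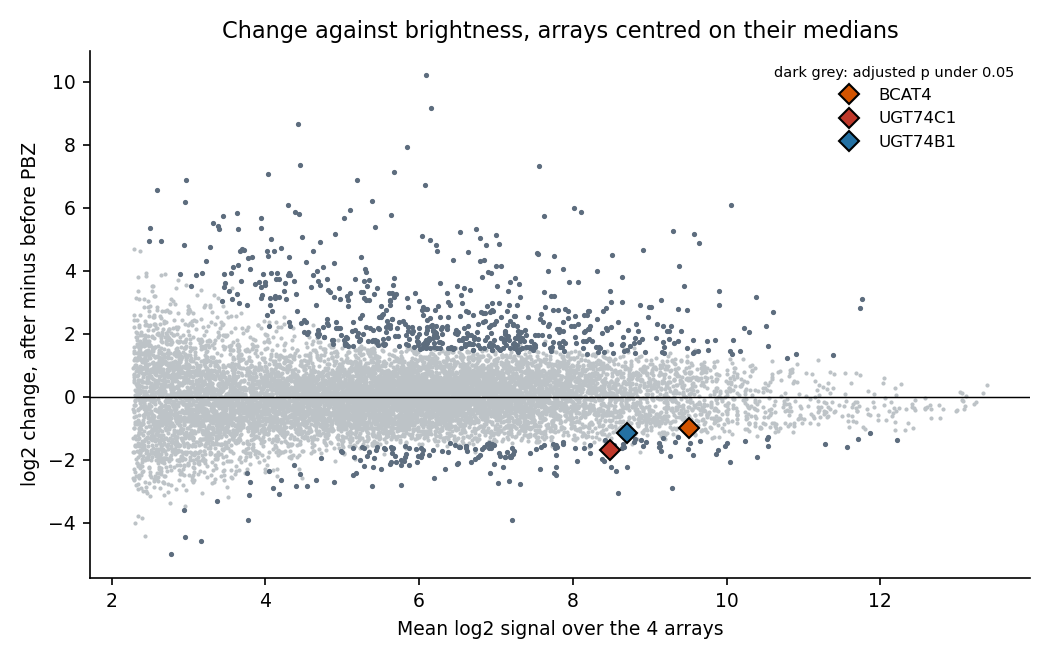
Centred log2 change (after minus before PBZ, vertical axis) against the mean log2 signal over the 4 arrays (horizontal axis) for the 12239 probe sets tested, with those at a limma adjusted p under 0.05 in dark grey. The diamonds of BCAT4, UGT74C1 and UGT74B1 lie toward the low side of the bright probe sets, at -1.01, -1.68 and -1.17.

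The position of each gene in the order of signals on its array does not depend on array brightness. UGT74C1 was brighter than 88.3% and 82.6% of all 16319 probe sets on the arrays after PBZ, against 95.9% and 96.1% on those before it. UGT74B1 was brighter than 91.5% and 86.6% after PBZ and than 96.2% and 95.5% before it. For BCAT4 the shares were 93.5% and 94.9% after PBZ and 97.7% and 97.9% before it. Each gene therefore held a lower place in the order on both arrays after PBZ, and all 3 remained among the brighter probe sets. The share of all probe sets that fell in place in this way is not given here. The nearest comparison, separation of the groups in the same direction once centred, held for 22.8% of the probe sets tested. The places are read from the same arrays and are not separate evidence of a fall.

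The 3 genes differed in how the replicates fell. After replicate 2 was the lower of the arrays after PBZ for both glucosyltransferases, while after replicate 1 was the lower for BCAT4, on both scales. The ratio of 2 genes on 1 array is free of array brightness, and it shows only whether their changes were unequal. UGT74C1 had a log2 change 0.51 below that of UGT74B1 (difference -0.51, from -0.63 to -0.40 over the 4 pairs of an array after and an array before PBZ). It lay below that of BCAT4 too (difference -0.67, from -1.26 to -0.080), and for UGT74B1 against BCAT4 the difference was -0.16, with array pairs from -0.86 to 0.55. An exact 2-sided permutation test of 2 arrays against 2 cannot give a p below 0.333, which the first and second pairs reached (the third gave p = 1). Such a test cannot pass the threshold whatever the values are, and it says nothing on whether the changes were unequal.

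Likeness across the 4 arrays was measured as the root mean square difference between centred log2 profiles, each set to its own mean, over 6796 other probe sets of 1 gene. The closest to UGT74C1 were AT1G69526, AT1G49740 and AT1G05540, at differences of 0.054, 0.073 and 0.091. The closest to UGT74B1 were AT2G37585, AT4G02485 and AT2G34620 (0.026, 0.054 and 0.060), and the closest to BCAT4 were CRR28, AT3G54390 and AT1G61740 (0.036, 0.059 and 0.059). UGT74C1 and UGT74B1 differed from each other by 0.27, with 81 of the 6796 closer to UGT74C1 than UGT74B1 was. BCAT4 was farther from UGT74C1, at 0.52, and from UGT74B1, at 0.41. With 4 arrays in 2 groups a close profile says little more than that a gene differed between the groups by a like amount, and the replicates in the same order.

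**Figure D3:**
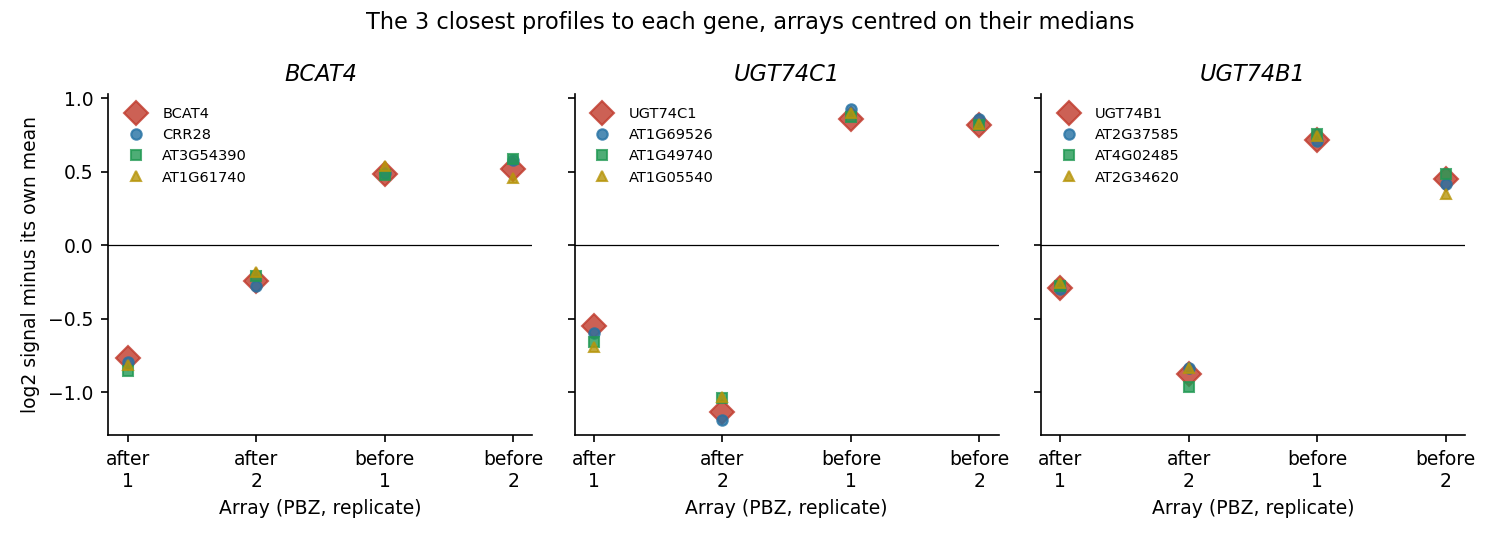
Centred log2 signal minus its own mean over the 4 arrays (vertical axis) on each array (horizontal axis) for BCAT4, UGT74C1 and UGT74B1 (red diamonds) and the 3 probe sets closest to each. After replicate 2 is the lowest array in the panels of UGT74C1 and UGT74B1, and after replicate 1 is the lowest in that of BCAT4.

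The rest of the pathway was read from 6 lists of 78 genes in all, covering chain lengthening, core steps, side chain modification, regulators, transport and breakdown. Of these, 12 had a probe set of their own among those analysed and 11 were bright enough to be tested, the 3 genes above among them. As deposited, 1 of the 11 was called lower by limma and 0 higher, with a median log2 change of -0.21, against 0.37 over all probe sets. Background rates for the same calls were 0.245% lower and 5.34% higher. Centred, 2 of the 11 were called lower and 0 higher, where 1.46% and 4.94% of all probe sets were, with a median of -0.58, against 0.0065 over all probe sets. The 8 tested genes other than the 3 had a centred median of -0.36, and 1 of them was called.

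That gene was GSTU20, a glutathione S-transferase assigned to the core step that joins glutathione to the oxidised intermediate of aliphatic glucosinolates. Its signals were 133.8 and 83.3 after PBZ, against 601 and 320.9 before PBZ, with no overlap. It fell by 2.06 on the log2 scale as deposited (SE 0.56, limma adjusted p = 0.0223) and fell by 2.42 centred (SE 0.48, limma adjusted p = 0.00197). As deposited the call was lost without after replicate 1 (-2.40, limma adjusted p = 0.132), after replicate 2 (-1.71, 0.466) or before replicate 1 (-1.60, 0.270), and when limma was run without its intensity trend (0.189). Centred, it was lost without before replicate 1 (-1.71, limma adjusted p = 0.143) and kept without any 1 of the other arrays. All 4 tested genes of chain lengthening and core steps, BCAT4, GSTU20, UGT74B1 and UGT74C1, had log2 changes below 0 on both scales. Centred, they ran from -2.42 to -1.01. Over all probe sets tested, 32.6% had a log2 change below 0 as deposited and 49.7% centred. BCAT4, UGT74B1 and UGT74C1 are the genes chosen for this report, so only GSTU20 adds to them. The genes tested are 4 of the 26 on the lists of those steps, and the other 22 were not analysed here.

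The tested genes outside chain lengthening and core steps had centred log2 changes from -0.59 (GTR1) to 0.064 (AOP3). They include enzymes of side chain modification, which is also part of synthesis. Their difference from the genes of chain lengthening and core steps, most of which are the 3 genes chosen for this report, was not tested. For side chain modification, GSL-OH (AT2G25450), a dioxygenase that hydroxylates alkenyl glucosinolates, had signals of 691.2 and 601.6 after PBZ, against 433.5 and 714.9 before PBZ. The groups overlapped as deposited and separated narrowly once centred, at 556 and 580 after PBZ and 590 and 677 before PBZ. The log2 change was 0.21 ± 0.49 as deposited and -0.15 ± 0.39 centred, so its sign depended on the scale, and neither passed. AOP1, a dioxygenase of the AOP locus, had signals of 97.9 and 175.5 after PBZ and 89.4 and 256.9 before PBZ, with overlap and a centred log2 change of -0.58 ± 0.49 (limma adjusted p = 0.579). AOP3, its neighbour in that family, was dim, with signals from 8.8 to 17.2 over the 4 arrays and a centred log2 change of 0.064 ± 0.82.

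Among regulators, MYC4, a basic helix-loop-helix factor of jasmonate signalling that activates glucosinolate genes together with MYB factors, had signals of 221.3 and 224.6 after PBZ, against 94.9 and 308.5 before PBZ. The arrays after PBZ lay between those before it, and the centred log2 change was 0.015 ± 0.46 (95% confidence interval -0.94 to 0.97). SDI2 (AT1G04770), known as a repressor of aliphatic glucosinolate synthesis under sulfur shortage, had signals of 276.1 and 131.9 after PBZ and 118 and 194.4 before PBZ. Its groups overlapped, with a log2 change of 0.33 ± 0.57 as deposited and -0.033 ± 0.44 centred. Neither passed the test, and a 95% confidence interval of -0.95 to 0.89 for SDI2 covers changes of either sign.

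The transporter GTR1, which imports glucosinolates into cells, had signals of 482.2 and 470.8 after PBZ, against 476.9 and 652.5 before PBZ. The groups overlapped as deposited and separated once centred, where the log2 change was -0.59 ± 0.40 and did not pass (limma adjusted p = 0.455). Of breakdown genes, PYK10, a beta-glucosidase abundant in roots and seedlings, was near the dim end with signals of 3.3 and 11.7 after PBZ and 5.9 and 8.6 before PBZ. BGLU28, a beta-glucosidase known from sulfur-starved plants, was at 1.3 and 4.4 after PBZ and 1 and 0.8 before PBZ, and was left out of the test as dim.

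**Figure D4:**
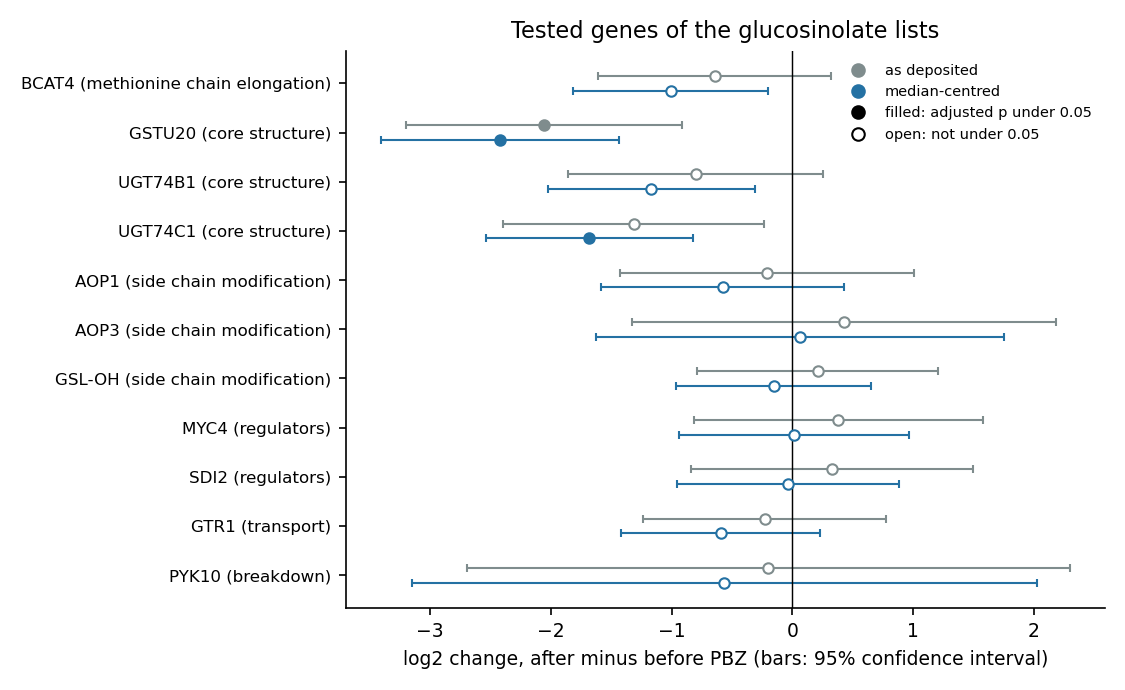
log2 change (after minus before PBZ, horizontal axis) with its 95% confidence interval for the 11 tested genes of the glucosinolate lists, as deposited (grey) and centred (blue). Filled points passed at a limma adjusted p under 0.05, which GSTU20 did on both scales and UGT74C1 on the centred scale.

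Close relatives of the 3 enzymes were measured in few cases. Measured here means having a probe set that the annotation pairs with exactly 1 gene. As 6278 probe sets have no gene listed, other genes may be on the array without a name. UGT74D1, a glucosyltransferase known to act on auxins, has 3 protein-coding genes between it and UGT74C1 in the TAIR10.1 reference order. Its signals were 181.2 and 204.8 after PBZ, against 98.3 and 251.8 before PBZ, so its groups overlapped where those of UGT74C1 did not. The log2 change of UGT74D1 was 0.29 ± 0.57 as deposited and -0.074 ± 0.45 centred, and its difference from UGT74C1 was not tested. UGT74F1, which glucosylates salicylic acid, had signals of 1.5 and 3.1 after PBZ and 0.7 and 1.4 before PBZ and was too dim to be tested. BCAT6, an aminotransferase of the family of BCAT4, had signals of 5.8 and 11 after PBZ and 1.8 and 11.9 before PBZ, with a centred log2 change of 0.42 ± 1.35. Of 18 genes of sulfate assimilation and glutathione synthesis, PAPST1 (listed as TAAC), a plastid carrier that exports the sulfate donor of the last core step, was the 1 measured, at 48 and 48.5 after PBZ and 36.6 and 57.8 before PBZ (centred log2 change -0.30 ± 0.46).

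Few markers of leaf cell types were measured, again in the sense of a probe set paired with exactly 1 gene. As deposited none of them was called, and centred only the mesophyll marker PRK was. Of 10 mesophyll markers, 2 were measured, and their summed signal ran from 7032 to 7111 after PBZ and from 9214 to 9878 before PBZ. Of these 2, PRK separated the groups on both scales, while LHCB4.2 overlapped on both. The Calvin cycle enzyme PRK had signals of 3071 and 1856 after PBZ, against 4527 and 4819 before PBZ, and fell by 1.33 on the log2 scale once centred (SE 0.34, limma adjusted p = 0.0187). The centred call was lost without after replicate 2 (-1.10, limma adjusted p = 0.0548), before replicate 1 (-1.12, 0.333) or before replicate 2 (-1.55, 0.0582). PRK did not pass as deposited (limma adjusted p = 0.130). The antenna protein LHCB4.2 had signals of 4040 and 5177 after PBZ and 4687 and 5059 before PBZ, with a centred log2 change of -0.46 ± 0.34 (limma adjusted p = 0.512). Both markers were bright on all 4 arrays.

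For the phloem, 1 of 6 markers was measured, the sugar exporter SWEET11, at 1118 and 1343 after PBZ and 2009 and 1473 before PBZ (centred log2 change -0.86 ± 0.40, limma adjusted p = 0.237). Without before replicate 1 the centred change of SWEET11 was -0.37, and without before replicate 2 it was -1.34. For guard cells, 1 of 5 markers was measured, the transcription factor FMA, at 28.9 and 35.5 after PBZ and 22.5 and 24.7 before PBZ (centred log2 change 0.076 ± 0.52). No marker measured was at 0. Of bundle sheath, epidermis and xylem, 0 of 15 markers had a probe set paired with exactly 1 gene. The part of cell composition in the values of BCAT4, UGT74B1 and UGT74C1 was not tested.

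The log2 change of each of the 3 genes stayed below 0 under every other scaling, with a pseudocount and with any 1 array left out, and the choice of scaling moved the calls. The dim filters, the replicate block and the intensity trend change the SE or the adjusted p but by construction not the log2 change. UGT74C1 was called in 6 of the 17 alternatives, all of them with arrays scaled to each other, UGT74B1 in 2 and BCAT4 in 1. On the deposited scale, leaving out 1 array moved the log2 change of UGT74C1 between -1.74 and -0.89. The ranges were -1.22 to -0.38 for UGT74B1 and -0.92 to -0.36 for BCAT4. With each array centred the ranges of UGT74C1, UGT74B1 and BCAT4 were -1.97 to -1.39, -1.46 to -0.88 and -1.27 to -0.75. As deposited, leaving out 1 array moved the value by over 1.5 times for UGT74B1 without after replicate 1 (-1.22) or after replicate 2 (-0.38), and for BCAT4 without before replicate 2 (-0.36).

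**Figure D5:**
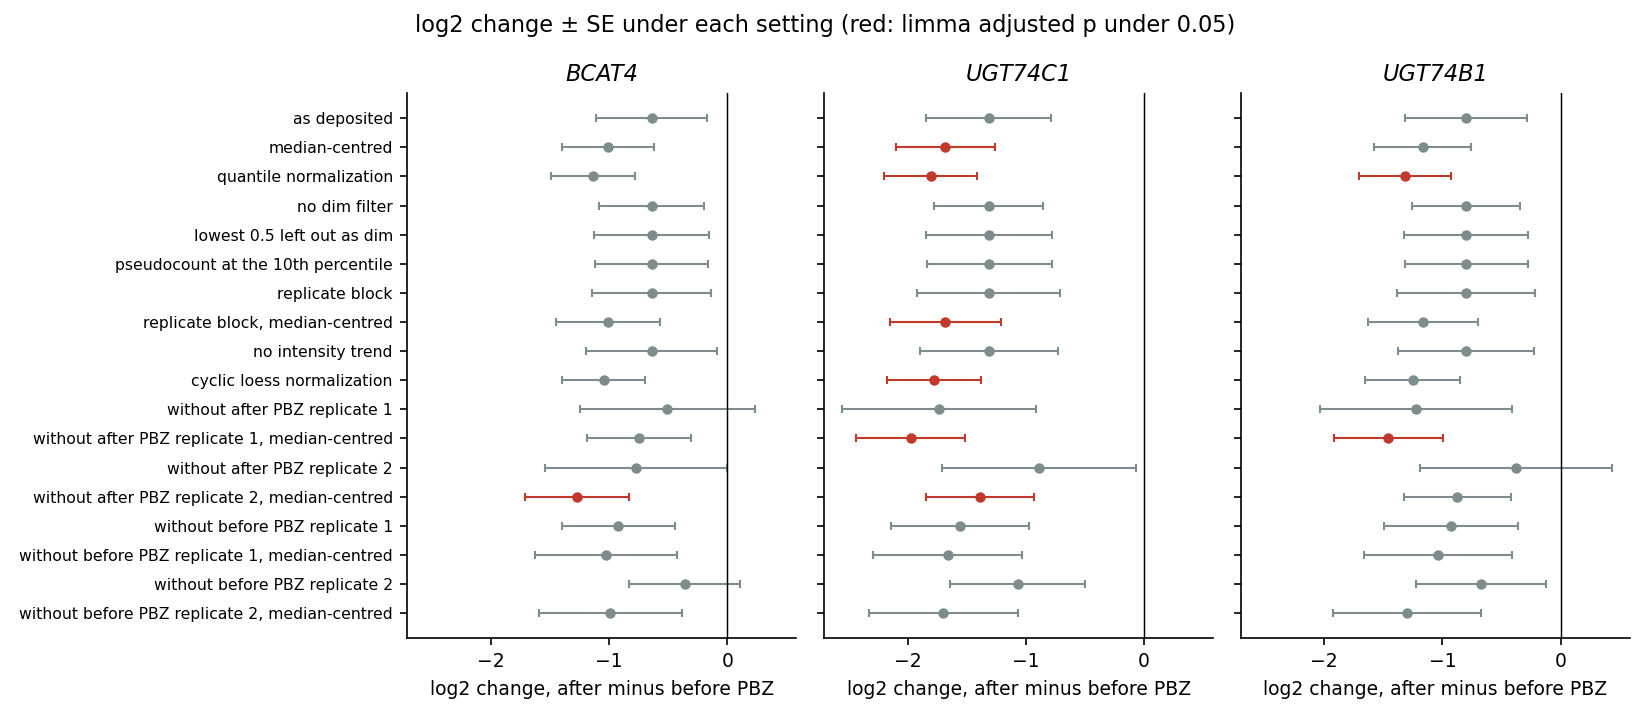
log2 change (after minus before PBZ, horizontal axis) ± SE of BCAT4, UGT74C1 and UGT74B1 under each of 18 settings (rows), red where the limma adjusted p was under 0.05. Each point lies below 0, and the red points, 6 for UGT74C1, 2 for UGT74B1 and 1 for BCAT4, are all from settings that scale the arrays to each other.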

How the data were processed

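Leaf RNA of 4 samples was read on 1-colour Affymetrix arrays, and samples were grouped by their titles. The deposited values are linear signal intensities per probe set, made with GCOS per the submitters' processing notes. The GCOS version and the scaling of the arrays to each other are unknown here. Without 64 control rows, 16319 probe sets remained. The platform annotation lists 1 gene for 9685 of these (9647 found in the TAIR10.1 gene table, used for names and neighbours), more than 1 for 356 and no gene for 6278.

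From these intensities log2(signal) was computed, with 2 values of 0 replaced by 0.1. The dimmest 0.25 of probe sets by mean over the arrays (4080) were dropped, and limma 3.58.1 under R 4.3.3 (lmFit, then eBayes with an intensity trend) compared leaves after PBZ with leaves before PBZ over the other 12239. Tests were 2-sided with Benjamini-Hochberg adjustment over all of these and a threshold of 0.05. The fit had 2 residual and 27.2 prior degrees of freedom, so errors lean on those of all probe sets. Folds are ratios of geometric means. The fit was also run on simulated data with independent noise and no difference in array brightness. That run therefore does not bear on how scaling moves the calls. To centre arrays, each log2 array was shifted to the mean of the 4 medians.

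Alternatives were centring, quantile normalization, no dim filter, a dim filter of 0.5, a pseudocount of 1.3, an error model without intensity trend, a block for the replicate number, and each array left out, as deposited and centred. Cyclic loess normalization was chosen after seeing the data. The genes named are the 3 enzymes, the measured genes of the glucosinolate lists, up to 4 of each other list by smallest p, and the 3 closest profiles to each enzyme. The enzymes and lists were chosen with earlier results of these data known. Sequences and genome positions were not used here.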

Additional observations from a re-analysis of the deposited data

How the results depend on the processing

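The log2 changes of UGT74C1, UGT74B1 and BCAT4 stayed below 0 under each of the 17 alternatives, some of which (dim filters, replicate block, no intensity trend) cannot move them, and their calls depended on how the arrays were scaled. UGT74C1 passed with each array centred on its median (-1.68), under quantile normalization (-1.80), under cyclic loess normalization (-1.78) and with the replicate block on centred arrays (-1.68). UGT74B1 passed under quantile normalization (-1.32). With 1 array left out, as deposited or centred, the values ran from -1.97 to -0.89 for UGT74C1, from -1.46 to -0.38 for UGT74B1 and from -1.27 to -0.36 for BCAT4.

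Of genes that passed nowhere, the sign turned for several. GSL-OH, SDI2, PAPST1 and UGT74D1 were at -0.15, -0.033, -0.30 and -0.074 centred, with or without the replicate block, at -0.30, -0.20, -0.37 and -0.30 under quantile normalization, and at -0.21, -0.17, -0.34 and -0.21 under cyclic loess. MYC4 was at -0.20 under quantile normalization and -0.12 under cyclic loess. With 1 array left out, the ranges were -1.13 to 0.55 for AOP1, -0.42 to 0.79 for AOP3, -0.25 to 0.57 for GSL-OH, -0.57 to 1.23 for MYC4, -0.43 to 0.87 for SDI2 and -1.61 to 0.72 for PYK10. They were -0.44 to 0.40 for PAPST1, -0.49 to 0.97 for UGT74D1, -0.68 to 2.15 for BCAT6, -0.77 to 0.088 for LHCB4.2 and -0.20 to 0.59 for FMA.

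Over all probe sets, the count called lower (30 as deposited) was 179 centred, 164 centred with the replicate block, 278 under quantile normalization, 196 under cyclic loess, 15 with no dim filter, 48 with the lowest 0.5 left out and 8 with no intensity trend, where 157 rather than 653 were called higher. With 1 array left out, from 12 to 521 were called lower and from 217 to 1136 higher. Of the 11 pathway genes, the count called lower (1 as deposited) was 2 centred, 2 centred with the replicate block, 3 under quantile normalization, 2 under cyclic loess and 0 with no intensity trend, and from 0 to 3 with 1 array left out. The cause of these shifts was not tested.

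The labels number the replicates alike in both groups without saying that a number marks shared plants. Deviations of same-numbered arrays from their group means correlated at r = -0.064 across 12239 probe sets. With the replicate block and no centring, UGT74C1, UGT74B1 and BCAT4 kept their log2 changes, at adjusted p of 0.277, 0.636 and 0.676 by limma, and 543 probe sets were called higher and 29 lower. Of the other named genes, PRK passed on the values as deposited only with the block (-0.97, limma adjusted p = 0.0314).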
